A study of Homo sapiens and Mus musculus with 16 samples.

Results

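Star miRNAs are the strand of a miRNA duplex that the older miRBase names mark with an asterisk. A miRNA gene is transcribed into a hairpin, which Drosha cuts in the nucleus and Dicer trims in the cytoplasm to a short duplex. An Argonaute protein keeps 1 strand of the duplex as the guide, and the other, the star or passenger strand, is discarded and degraded, so that star strands are usually the rarer product of a hairpin. Some hairpins load both strands, and strand choice follows in part from the 5′ base and from how easily each end of the duplex opens. The members described here were every row of the deposited miRNA tables whose name ends in an asterisk, apart from 1 row that is not reported. There were 82 such rows of 385 in SK-HEP-1 cells (78 of 364 in the first batch, 64 of 284 in the second and 60 in both) and 91 of 305 in BNL CL.2 cells, or 173 of 690 rows in all. Each star row was set beside its guide row, the row of exactly the same name without the asterisk, which was listed for 55 star rows in SK-HEP-1 and 56 in BNL CL.2. A further 19 and 17 found a guide only after a locus number was dropped (miR-29b-1* to miR-29b), and 8 and 18 had none. Rows named by arm (93 and 66, such as miR-x-5p) carry no asterisk and were not members. They count among the rows without an asterisk used for comparison below, which are therefore not all guide rows as defined here.

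SK-HEP-1, a human line labelled as liver, and BNL CL.2, a mouse liver line, were cultured with an ethanol extract of *Antrodia cinnamomea* fruiting bodies (AcFBE) at 0.5 mg/ml or with DMSO, the solvent control. Conditions are written 2U and 4U for untreated and 2T and 4T for treated cells at 2 and 4 h. SK-HEP-1 had 2 libraries per condition, 1 in each of 2 culture batches, and the first batch (batch 1) was read on a SOLiD 3 and the second (batch 2) on a SOLiD 5500xl, so that culture batch and sequencer cannot be told apart. BNL CL.2 had 1 library per condition, as did the SK-HEP-1 mRNA. Small RNA counts per named miRNA were divided by the quality reads of each library to give RPM (reads per 1000000 quality reads), and library values are given in the order 2U, 2T, 4U, 4T.

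The SK-HEP-1 libraries held 173239 to 881237 miRNA reads, of which 1686 to 11753 were on star rows. The BNL CL.2 libraries held 670185 to 1118579 miRNA reads, with 8935 to 11227 on star rows. A count of 3 reads, the limit that a count of 0 allows, equalled 0.142 to 0.421 RPM in SK-HEP-1 and 0.284 to 0.506 RPM in BNL CL.2, and since the smallest count listed above 0 was 2, a row listed at 0 can have had 1 read. In the mRNA table of SK-HEP-1, albumin (ALB), APOA1 and TTR, which hepatocytes make, were listed at 0 in all 4 libraries, while SERPINA1 was at 8.59 to 18.7 FPKM. The endothelial genes PECAM1, KDR, CDH5 and VWF were also listed at 0 in all 4. A listed 0 of an mRNA can be a failed estimate, for these and the hepatocyte genes alike. The endothelial miRNA miR-126, in contrast, was at 206, 26.1, 117 and 21.7 RPM in batch 1 and 57.4, 19.8, 0 and 22.4 RPM in batch 2. The hepatocyte miRNA miR-122 was at 9.82, 0.910, 0.509 and 2.07 RPM in batch 1 of SK-HEP-1 and at 0 to 0.190 RPM in batch 2. In BNL CL.2 it was at 0 to 0.337 RPM. A few rows were at or below 2 reads in 1 library and at 100 or more in each of the other 3 of the same table. There were 7 of these. Among them were the guide rows miR-126 and miR-22 in 4U of the second SK-HEP-1 batch (0 and 2 reads). The star rows miR-378* and miR-193* in 4T of BNL CL.2 (0 reads each) were others. These named rows enter the star/guide ratios below.

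Mature sequences of 78 of the 82 human star rows were found in RefSeq (GRCh38.p14), and 75 of these had their guide as well. The duplexes below are those in which the mean RPM of the star row exceeded that of the guide row over the 8 SK-HEP-1 libraries (5 duplexes did so over the 4 treated libraries alone), printed 5′ to 3′ with the seed (bases 2 to 8), which pairs with target mRNAs, in capitals, so that both strands can be compared. For miR-126 and miR-500a the summed reads were slightly higher for the guide.
let-7i* (3p arm): cUGCGCAAgcuacugccuugcu
let-7i (5p arm): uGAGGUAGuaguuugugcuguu
miR-126* (5p arm): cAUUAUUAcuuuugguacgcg
miR-126 (3p arm): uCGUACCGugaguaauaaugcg
miR-378* (5p arm): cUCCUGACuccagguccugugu
miR-378 (3p arm): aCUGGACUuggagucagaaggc
miR-550a* (3p arm): uGUCUUACucccucaggcacau
miR-550a (5p arm): aGUGCCUGagggaguaagagccc
miR-340* (3p arm): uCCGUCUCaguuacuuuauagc
miR-340 (5p arm): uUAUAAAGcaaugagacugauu
miR-26b* (3p arm): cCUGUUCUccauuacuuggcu
miR-26b (5p arm): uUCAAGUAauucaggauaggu
miR-500a* (3p arm): aUGCACCUgggcaaggauucug
miR-500a (5p arm): uAAUCCUUgcuaccugggugaga
miR-545* (5p arm): uCAGUAAAuguuuauuagauga
miR-545 (3p arm): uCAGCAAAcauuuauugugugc
miR-335* (3p arm): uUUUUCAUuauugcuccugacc
miR-335 (5p arm): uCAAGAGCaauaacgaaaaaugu

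The star strand came from the 3p arm for 54 of the 82 human star rows and from the 5p arm for 28. Among the 75 duplexes with both sequences, the guide began with U in 45 and the star strand in 13 (60.0% and 17.3%, against 36.8% of 2370 RefSeq mature miRNAs). The guide alone began with U in 37 duplexes and the star strand alone in 5. C was the most frequent first base of the star strands (34), followed by A (21) and G (7). Median length was 22 bases for both strands, and median GC content was 50% for star strands and 45.5% for guides. Of the 9 duplexes printed above, the star strand began with U in 4 and the guide in 7, and in 40 other duplexes of the same table with both sequences, these numbers were 3 and 20. The star strands held 74 different seeds. Only miR-7-1* and miR-7-2*, miR-24-1* and miR-24-2*, miR-26a-1* and miR-26a-2*, and miR-30c-1* and miR-30c-2* shared a seed.

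Of the 82 miRNA genes behind these star rows, 61 were found under their RefSeq symbol in the GRCh37 annotation, the build of the study, and 56 of them lay inside a longer gene on the same strand. MIRLET7I was at chr12:62997466-62997550 (plus strand), in an intron of the lncRNA MIRLET7IHG. MIR126 was at chr9:139565054-139565138 (plus strand), in an intron of EGFL7, a gene of endothelial cells. MIR378A was at chr5:149112388-149112453 (plus strand), in an intron of PPARGC1B, a coactivator of mitochondrial genes. MIR340 was at chr5:179442303-179442397 (minus strand), in an intron of RNF130. MIR26B (chr2:219267369-219267445, plus strand), MIR26A1 (chr3:38010895-38010971, plus strand) and MIR26A2 (chr12:58218392-58218475, minus strand) lay in introns of CTDSP1, CTDSPL and CTDSP2, which encode related small phosphatases. MIR500A was at chrX:49773039-49773122 (plus strand), in an intron of the chloride transporter gene CLCN5. The loci of miR-550a, MIR550A2 (chr7:32772593-32772689, plus strand) and MIR550A3 (chr7:29720350-29720444, minus strand), had no host gene on their strand. MIR545 was at chrX:73506939-73507044 (minus strand), in an intron of the lncRNA FTX, and MIR335 at chr7:130135952-130136045 (plus strand), in an intron of the imprinted gene MEST.

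Star rows in SK-HEP-1 were mostly rare. Their mean RPM over the 8 libraries had a median of 1.015, against 1.314 for the 302 rows without an asterisk, 42 reached 1 RPM and 11 reached 10 RPM. A total of 30 were above 0 in all 8 libraries and 13 in 1 library only. The 3 most abundant, let-7i*, miR-126* and miR-22*, held 47.3% of the summed star RPM. let-7i*, the other strand of a let-7 family hairpin known for restraining growth-promoting genes, was at 335, 90.7, 301 and 58.9 RPM in batch 1 and 19.7, 13.6, 42.5 and 16.8 RPM in batch 2. All 4 treated values were below the untreated value of the same batch and time, but the groups overlapped, because the second batch lay below the first. In bulk RNA, fewer living cells of a kind and less of a miRNA per cell cannot be told apart. miR-126*, from the endothelial EGFL7 locus, was at 245, 77.2, 57.6 and 25.1 RPM and at 15.9, 12.5, 42.2 and 16.6 RPM. miR-22* was at 288, 31.6, 71.1 and 25.8 RPM and at 16.6, 11, 24.998 and 8.93 RPM. Both again had a lower value in treated cells in all 4 pairs.

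Next came miR-378* (mean of 42.2 RPM), miR-132* (21.0), from a hairpin known for its induction by CREB, miR-7-1* (19.9), miR-550a* (15.9), miR-29b-1* (15.6), miR-27a* (14.8) and miR-454* (11.7). miR-132* was at 60.4, 7.41, 42.8 and 10.6 RPM in batch 1 and 16.8, 7.29, 18.9 and 3.54 RPM in batch 2. miR-7-1* was at 68.3, 11.7, 38.7 and 11.7 RPM and at 8.40, 3.59, 14.3 and 2.41 RPM. For miR-132* the 4 untreated values were all above the 4 treated values, and for miR-7-1* the untreated values of the second batch overlapped with the treated values of the first. miR-29b-1* was at 56.9, 2.86, 36.7 and 1.96 RPM and at 21.7, 3.18, 0.396 and 1.13 RPM, so that 4U of the second batch stood below all treated libraries. miR-27a* behaved alike in that library, with 1.44 RPM against 18.5 in 2U of the same batch.

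**Figure D1:**
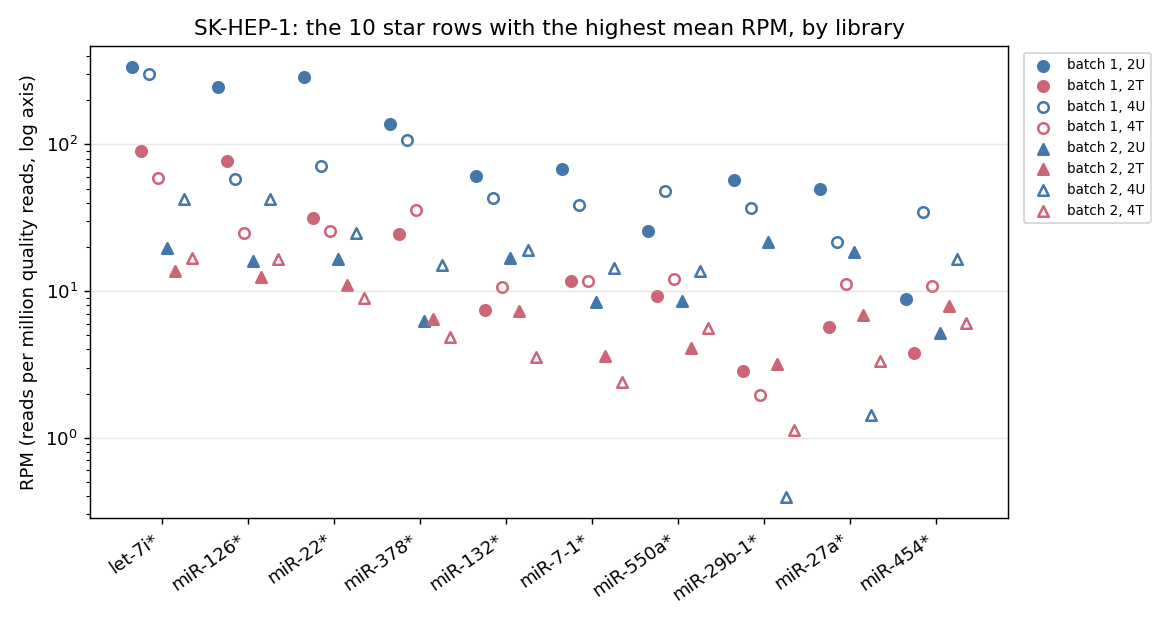
RPM (log axis) of the 10 star rows with the highest mean in SK-HEP-1, 1 point per library, with batch by shape, treatment by colour (blue untreated, red treated) and time by fill (filled 2 h, open 4 h). The first batch lies above the second for most rows, let-7i* spans 13.6 to 335 RPM, and 4U of the second batch is the lowest point of miR-29b-1* and miR-27a*.

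Treated and untreated SK-HEP-1 libraries were compared in edgeR (quasi-likelihood, adjusted for batch and time). The test ran over the 199 miRNAs whose mean over treated and untreated libraries together reached 1 RPM, 42 of them star rows. Star rows were lower in treated cells in 41 of 42 cases, with a median log2 fold change of -1.72 (quartiles -2.07 and -1.21). The 156 tested rows without an asterisk had a median of -1.33, and all tested rows one of -1.37. With edgeR, 0 star rows passed an adjusted p of 0.05, and among all tested rows the share was 0%. At an unadjusted p under 0.05, 23 of 42 star rows passed, all lower, beside 45.7% of all tested rows, and the smallest adjusted p (Benjamini-Hochberg) was 0.0559. Scaling by the reads left after the tRNA filter gave 24 called star rows (50.3% of all tested rows), the stricter filter of 5 RPM gave 4 of 17 (17.1%), DESeq2 on quality reads gave 24 (47.2%), limma on log2(RPM + 1) gave 12 (21.1%), and edgeR with the treated and untreated pair as a block gave 17 (30.2%). In 28 of the 42 star rows all 4 pairs were lower in treated cells, as in 97 of the 156 rows without an asterisk.

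The scaling set how low these values lay. With counts divided by the total of the miRNA reads, the median of all tested rows moved from -1.37 to 0.10 and that of star rows to -0.24, with 24 of 42 below 0. TMM gave medians of -0.10 and -0.43 and DESeq2 size factors 0.02 and -0.32. The star median lay below that of the rows without an asterisk by 0.36 to 0.39 on each of these scales and on the main one, by 0.12 among rows of at least 5 RPM, and by less than 0.01 with limma on log2(RPM + 1).

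At 2 h the median of the star rows was -1.90 (rows without an asterisk -1.51). An unadjusted edgeR p under 0.05 was reached by 7 of 42 star rows and 37 of 156 others (22.1% of all tested rows). At 4 h the median of the star rows was -1.63 (rows without an asterisk -1.30). The same limit was passed by 12 of 42 star rows and 13 of 156 others (12.6% of all tested rows). With edgeR, 0 star rows passed an adjusted p of 0.05 at either time, and 0 did for the difference between the times. In that difference only miR-15b* had an unadjusted p under 0.05 (0.0221, adjusted p = 0.953), beside 3.52% of all tested rows. It was at 0.421, 0, 0 and 0 RPM in batch 1 and 8.64, 2.47, 0 and 0.354 RPM in batch 2, so that its difference rested on very few reads at 4 h.

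The lowest log2 fold changes belonged to miR-19b-1*, miR-26a-1*, miR-26a-2*, miR-125b-1* and miR-29b-1*. The sequences of these strands are printed here with the seed in capitals, since miR-26a-1* and miR-26a-2*, which come from different chromosomes, share theirs.
miR-19b-1* (5p arm): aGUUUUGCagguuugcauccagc
miR-26a-1* (3p arm): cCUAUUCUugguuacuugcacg
miR-26a-2* (3p arm): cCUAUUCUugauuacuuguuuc
miR-125b-1* (3p arm): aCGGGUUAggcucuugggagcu
miR-29b-1* (5p arm): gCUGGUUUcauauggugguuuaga

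miR-19b-1*, from the growth-promoting miR-17-92 cluster, was at 1.26, 0, 0.764 and 0 RPM and at 5.79, 1.47, 11.6 and 1.205 RPM. Its log2 fold change was -3.36 ± 0.81 (SE, edgeR adjusted p = 0.0559). miR-26a-1* was at 7.15, 0.650, 2.80 and 0 RPM and at 1.23, 0.235, 1.98 and 0.354 RPM (-3.21 ± 0.92, edgeR adjusted p = 0.0559). miR-26a-2* was at 0.561, 0, 6.28 and 0.218 RPM and at 2.66, 0.706, 3.96 and 0.496 RPM (-3.15 ± 0.95, edgeR adjusted p = 0.0584). Treated values of these 3 rows were below the untreated value in all 4 pairs, and each was listed at 0 in at least 1 treated library of the first batch. miR-125b-1* had -3.09 ± 0.74 and miR-29b-1* -3.05 ± 1.06 (edgeR adjusted p = 0.0559 and 0.0763). Apart from miR-29b-1*, the 5 rows had means of 1.45 to 2.77 RPM, near the limit of the filter. All treated values of miR-26a-1*, miR-26a-2* and miR-125b-1* were below 1 RPM. These rows thus passed the filter through their untreated libraries, which favours large falls, so that their rank is given as a description only.

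At the other end stood miR-17*, on this scaling the only tested star row above 0 (relative to the miRNA total, 24 of 42 were below 0), at 0.82 ± 1.85 (SE, edgeR unadjusted p = 0.671). It was at 31.5, 7.41, 15.8 and 5.01 RPM in batch 1 and 0, 0.471, 0 and 1.91 RPM in batch 2, where it was listed only in treated cells. Leaving out any 1 library moved it between -0.60 and 2.91. let-7d* was at 1.96, 2.73, 14.5 and 9.59 RPM and at 3.56, 3.35, 4.41 and 3.90 RPM, with a log2 fold change of -0.19 ± 0.57, and its treated and untreated values overlapped in both batches. miR-589* (-0.62 ± 0.65), miR-15b* (-0.70 ± 1.57) and miR-454* (-0.87 ± 0.58) followed, none past an unadjusted p of 0.05.

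**Figure D2:**
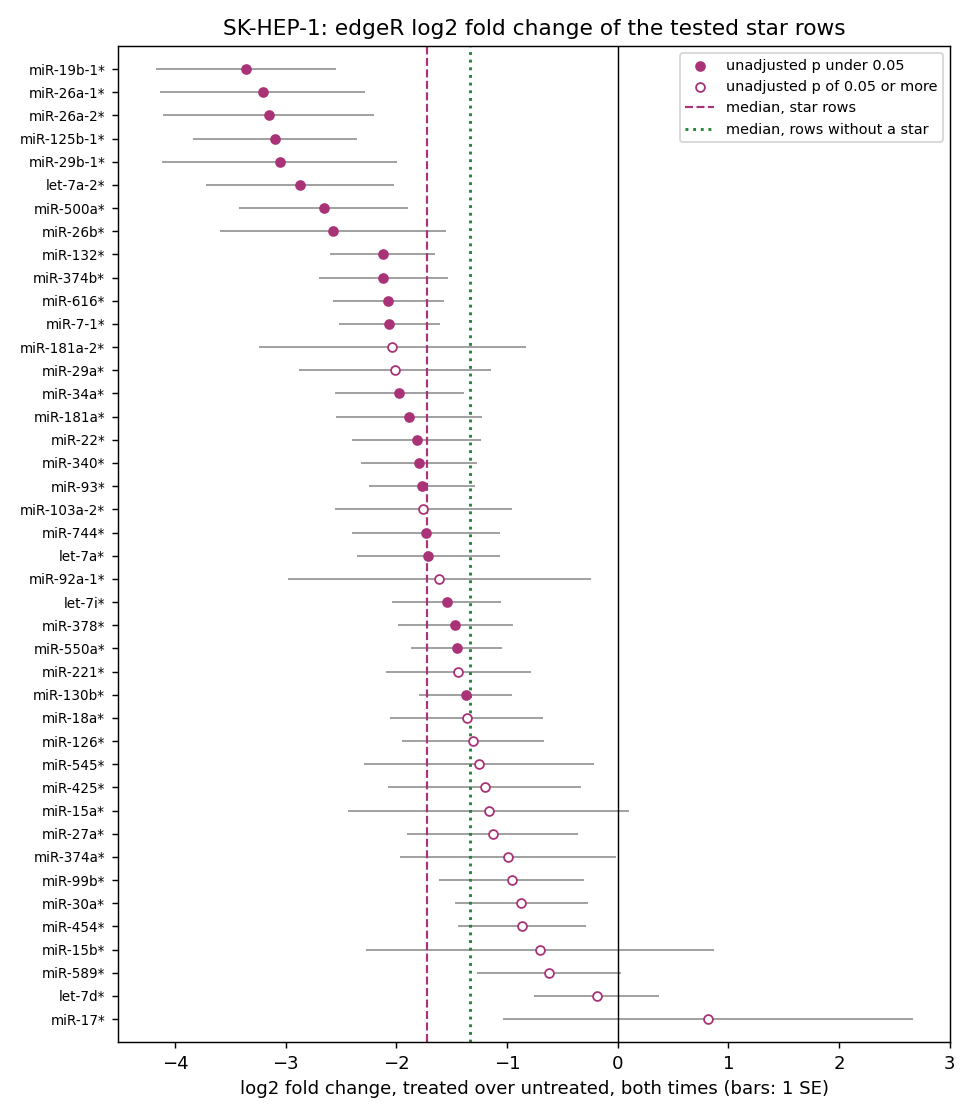
edgeR log2 fold change (treated over untreated, both times and batches) of the 42 tested star rows of SK-HEP-1, with bars of 1 SE and filled points for an unadjusted p under 0.05. The dashed line is the median of star rows (-1.72), the dotted line that of the 156 rows without an asterisk (-1.33), and on this scaling miR-17* alone lies above 0.

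Of the miR-17-92 cluster, which is amplified in many tumours, star rows of 5 hairpins were listed in SK-HEP-1. Beside miR-17* and miR-19b-1*, miR-18a* had a mean of 1.56 RPM and a log2 fold change of -1.36 ± 0.69, and miR-92a-1* a mean of 1.08 RPM and -1.61 ± 1.37. miR-20a* (0.446 RPM) was below the filter. Of the related miR-106b-25 cluster, which lies in MCM7, miR-93* was at 17.5, 4.29, 29.96 and 7.96 RPM and at 6.36, 2.47, 5.45 and 1.42 RPM, lower in treated cells in all 4 pairs (-1.77 ± 0.48, edgeR adjusted p = 0.0559). miR-106b* (0.333 RPM) and miR-25* (0.0485 RPM) were near or below the detection limit. In BNL CL.2, miR-17* was at 38.3, 38.5, 2.73 and 15.8 RPM, miR-18a* at 25.6, 22.6, 15.1 and 27.1 RPM and miR-93* at 20.9, 13.9, 1.48 and 13.5 RPM, with no replicate, so that low 4U values and higher 4T values in that line rest on 1 library each.

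The star row lay above the guide row in 9 of the 52 SK-HEP-1 duplexes with a mean of at least 10 star and guide reads. Over the treated libraries alone it was above in 5, and over the untreated libraries alone in 8. let-7i* had 8912 reads over the 8 libraries against 1041 for let-7i, a ratio of mean RPM of 8.13, and was the higher strand in 8 of 8 libraries (log2 star/guide of 3.26 ± 1.47, SD, n = 8 libraries). let-7i itself was at 62.4, 9.49, 16.2 and 5.12 RPM in batch 1 and 8.35, 4.71, 0.941 and 0.709 RPM in batch 2. miR-550a* had 931 reads in the first batch, where no guide row was listed and the guide was set to 0. In the second batch miR-550a* had 607 reads against 54 for its guide. It was at 25.7, 9.23, 48.0 and 12.1 RPM and at 8.59, 4.12, 13.7 and 5.60 RPM. miR-340* (556 against 159 reads, 3.31-fold by mean RPM) was also higher in 8 of 8 libraries. The duplexes of let-7i and miR-340 kept the order of their strands in every SK-HEP-1 library, and that of miR-550a in those of the second batch.

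miR-378* was above miR-378 in 7 of 8 libraries, by 1.65-fold in mean RPM (3371 and 1965 reads). It was at 138, 24.3, 107 and 35.5 RPM and at 6.22, 6.41, 15.0 and 4.89 RPM, and miR-378 at 81.2, 17.4, 57.1 and 36.5 RPM and at 5.41, 2.59, 3.27 and 1.42 RPM. The log2 star/guide ratio of the libraries ran from -0.04 in 4T of batch 1 to 2.19 in 4U of batch 2, and in batch 2 the star value was higher in 4U than in 2U while the guide value was lower. miR-545* was higher in 7 of 8 libraries (111 and 36 reads) and miR-335* in 5 of 8 (89 and 21 reads), both at about 1 RPM or below. In the remaining 3 duplexes the order differed between libraries, with the star row higher in 4 of 8. miR-126* had 4884 reads and miR-126 5111 (1.05-fold by mean RPM, log2 star/guide of 1.10 ± 4.02, SD, n = 8). The large SD came from the 0 reads of miR-126 in 4U of the second batch. The place of miR-126* in this group rests on that library as well, since without it the guide had the higher mean RPM. miR-26b* had 438 reads and miR-26b 238 (1.26-fold by mean RPM, log2 star/guide of -0.39 ± 2.96, SD, n = 8). miR-500a* had 157 reads and miR-500a 161 (1.27-fold by mean RPM, log2 star/guide of -1.24 ± 2.402, SD, n = 8). For both, the mean of the log2 ratios was below 0, on the other side from the ratio of mean RPM. The star row of miR-500a was the higher in every library of batch 1 and in none of batch 2.

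In BNL CL.2 the star row was above the guide row in 7 of 54 duplexes, each in 4 of 4 libraries. Over the untreated libraries alone it was above in 12, and over the treated libraries alone in 7. let-7i* was at 43.6, 25.3, 19.1 and 53.7 RPM, with 1171 reads against 11 for let-7i, which was listed at 0 in both untreated libraries. miR-26b* had 1079 reads against 59, and was at 37.7, 27.8, 33.8 and 29.6 RPM. miR-140*, of a hairpin best known from cartilage, had 912 against 164 and was at 37.6, 22.2, 27.9 and 23.4 RPM. miR-30a* (772 and 273 reads), miR-18a* (765 and 370), miR-15a* (153 and 14) and miR-3068* (87 and 31) completed the group. The treated values of miR-26b* and miR-140* were below the untreated value at both times, and those of let-7i*, miR-30a* and miR-18a* were below it at 2 h and above it at 4 h.

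**Figure D3:**
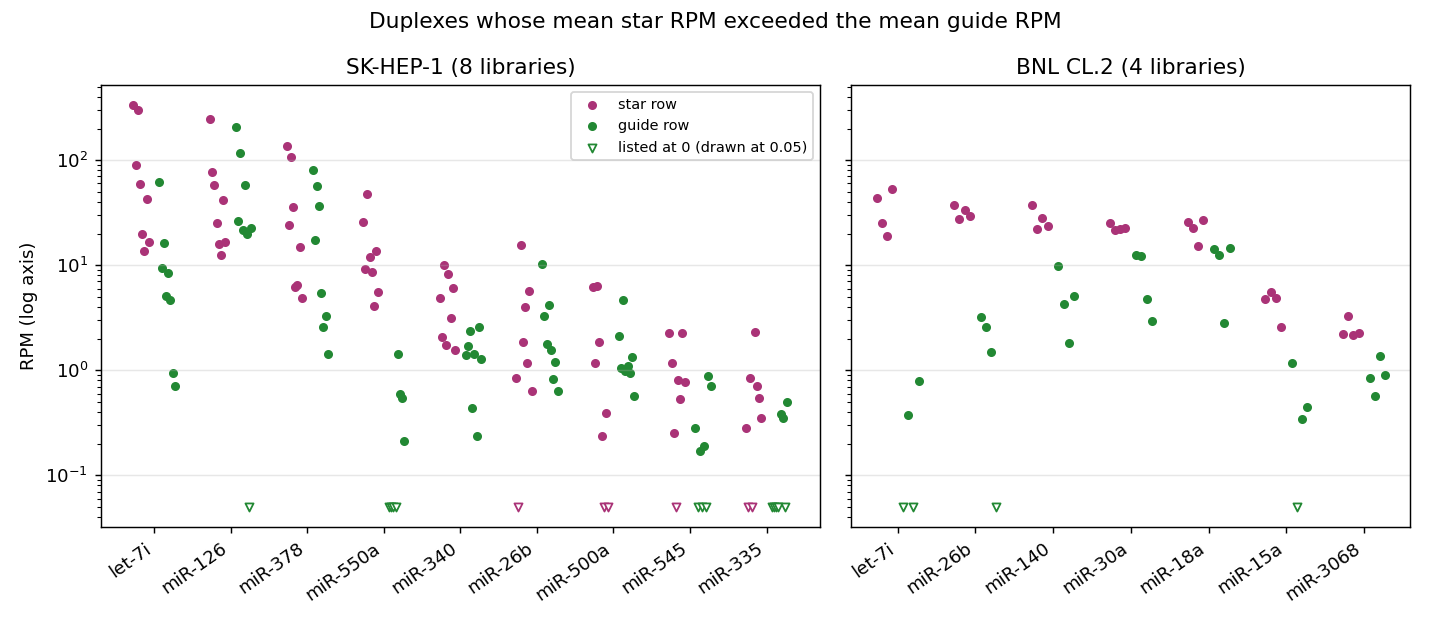
RPM (log axis) of the star row (purple) and guide row (green) in each library, for the 9 SK-HEP-1 duplexes and 7 BNL CL.2 duplexes with a higher mean in the star row. Each point is 1 library. Open triangles, drawn at 0.05, are libraries in which the row was listed at 0 or, as for miR-550a in batch 1, not listed. let-7i* exceeds let-7i in 8 of 8 and in 4 of 4 libraries.

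Of the 10 most abundant star rows of BNL CL.2, let-7i*, miR-378* and miR-27a* were also among the 10 of SK-HEP-1. In BNL CL.2 miR-24-2* led with 450, 159, 178 and 114 RPM (its guide, miR-24, at 1283 to 3037 RPM), followed by miR-674* with 195, 163, 123 and 195 RPM and let-7d* with 87.8, 113, 92.8 and 117 RPM. miR-24-2* was lower in the treated library at both times and miR-674* at 2 h only, and let-7d* was higher at both, without replicates to test any of these. miR-378* (109, 75.4, 128 and 0 RPM), miR-27a* (88.1, 93.8, 60.9 and 52.6 RPM), miR-31* (48.0, 44.5, 1.59 and 116 RPM) and miR-210* (91.0, 34.3, 43.0 and 35.6 RPM) came next. miR-210, a marker of hypoxia, was at 20.2, 216, 97.9 and 316 RPM, so that star and guide differed in which library was highest. miR-31 was at 8264, 13730, 9480 and 86.8 RPM, with its lowest value in 4T, where miR-31* had its highest. Over the rows above 0 in both libraries of a pair, star rows in BNL CL.2 had a median log2 ratio (treated over untreated) of -0.44 at 2 h (51 of 69 lower) and -0.01 at 4 h (33 of 63 lower), and rows without an asterisk -0.35 and 0.03. The same medians in SK-HEP-1 were -2.03 and -1.99 in batch 1 and -1.25 and -1.402 in batch 2 for star rows, and -1.69, -1.43, -1.14 and -0.99 for the others. All 4 SK-HEP-1 medians of the star rows were below both of BNL CL.2, a difference between lines that has no replicate in BNL CL.2 and was not tested. Mouse let-7a-1* and let-7c-2* had identical counts in all 4 libraries (53, 91, 69 and 105), so that reads may not have been told apart between them.

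Names of 46 star rows were listed in both lines, 36 in SK-HEP-1 only and 45 in BNL CL.2 only. Of the 46, 35 had a higher mean RPM in BNL CL.2. miR-24-2* was at 0.0526 RPM in SK-HEP-1, where only 1 library listed it, and at 225 RPM in BNL CL.2, whereas miR-132* was at 21.0 RPM in SK-HEP-1 and 0.324 RPM in BNL CL.2. Levels of single star rows thus differed widely between the lines, which also differ in species and batch. For the 30 duplexes with both strands listed in both lines, the log2 ratio of star to guide reads, summed over the libraries of a line with 0.5 added, correlated with r = 0.865 (Spearman's rho = 0.855) across duplexes, which are not independent replicates. The star row was below the guide row in both lines for 24 of them and above it in both for let-7i* and miR-26b*. The order turned for 4, with miR-378* above its guide in SK-HEP-1 only and miR-15a*, miR-18a* and miR-30a* in BNL CL.2 only. Within SK-HEP-1, however, the mean log2 star/guide of miR-15a* was -1.86 in batch 1 and 0.55 in batch 2. That of miR-18a* was -1.61 and 0.15, and that of miR-30a* -3.20 and -0.36. In batch 2, miR-30a* was above its guide in every library but 2U. For miR-15a*, miR-18a* and miR-30a* the turn between lines thus depended on the SK-HEP-1 batch. For miR-378* the turn rests on 4T of BNL CL.2, where it had 0 reads. Without that library its summed reads exceeded those of its guide there as well. Its log2 star/guide was above 0 in both untreated BNL CL.2 libraries (0.29 at 2 h, 0.48 at 4 h) and -0.37 in the treated library at 2 h. The widest gap was in miR-99b*, with -1.24 in SK-HEP-1 and -7.81 in BNL CL.2.

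**Figure D4:**
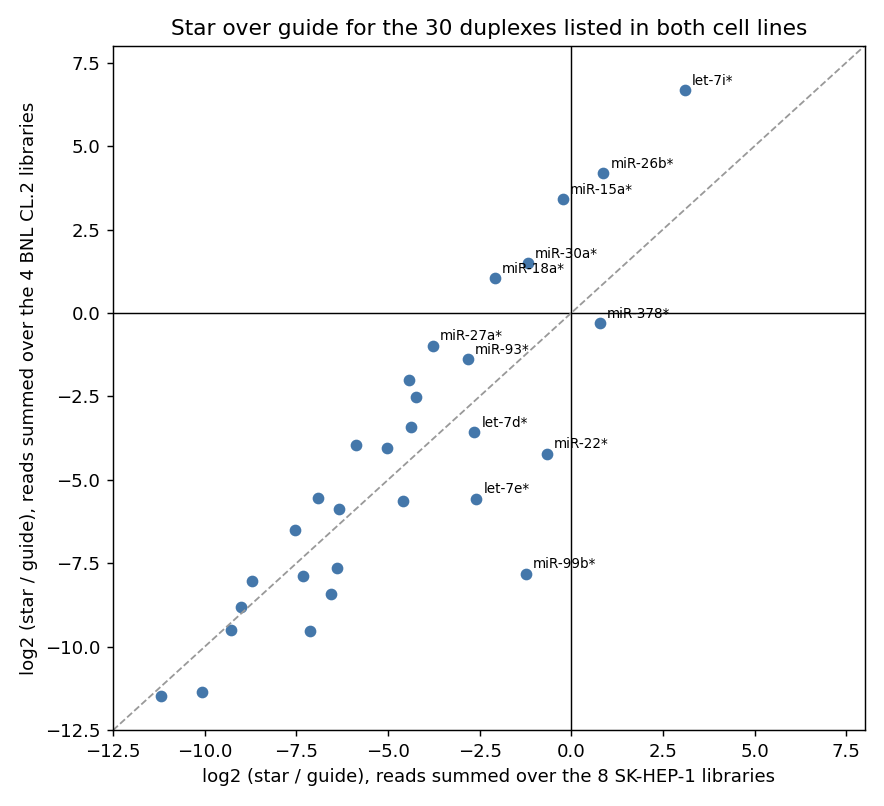
log2 ratio of star reads to guide reads, each summed over libraries, in SK-HEP-1 (x axis, 8 libraries) and BNL CL.2 (y axis, 4 libraries) for the 30 duplexes listed in both, 1 point per duplex, with the dashed line marking equal ratios. let-7i* and miR-26b* are the points above 0 on both axes, and 24 points are below 0 on both.

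The ratio of star to guide was then compared between treated and untreated cells, which asks whether both strands of a duplex were lower by the same factor. With a mean of at least 10 star reads and 0.5 reads added to each count, the median change of log2 star/guide over duplexes was -0.57 (28 duplexes) and -0.45 (28) at 2 and 4 h in the first SK-HEP-1 batch and -0.01 (27) and -1.10 (27) in the second. The mean of the 4 pairs was -0.53 ± 0.45 (SD, n = 4), and with 4 pairs an exact two-sided sign-flip test cannot go below 0.125. In BNL CL.2 the medians were -0.43 and -0.44 (33 duplexes). Duplexes entered on their star count alone, over treated and untreated libraries together, so that a duplex could pass through the libraries in which its star row was high, and these medians are given as a description only. With a minimum of 20 star reads the SK-HEP-1 mean moved to -0.22 and that of BNL CL.2 stayed at -0.44, and with guides also matched without the locus number they were -0.80 and -0.41.

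Of 32 SK-HEP-1 duplexes followed over the 8 libraries, the mean change was below 0 in 22 and above 0 in 10. The change was below 0 in 4 of 4 pairs for let-7e*, miR-335*, miR-26b* and miR-34a*, and above 0 in 4 of 4 for miR-17*. let-7e* had 2, 0, 62 and 6 reads and 18, 0, 7 and 0 reads, and miR-17* had 0 reads in 2U and 4U of batch 2. Their changes therefore depend in part on the 0.5 reads added. miR-26b* had 6, 0, 185 and 17 reads and 85, 20, 116 and 9 reads, against 74, 25, 21 and 38 and 33, 14, 24 and 9 reads of miR-26b, a change of -2.38 ± 1.401 (SD, n = 4 pairs). miR-335* had 2, 0, 10 and 0 reads and 49, 12, 11 and 5 reads against 0 reads of its guide in batch 1 and 8, 6, 0 and 7 in batch 2. Its change was -3.32 ± 1.62 (SD, n = 4 pairs), but with 0 guide reads in 5 of the 8 libraries this value mostly follows the star reads and the 0.5 reads added, and is no measure of strand choice. No single duplex could pass the exact sign-flip test over 4 pairs, whose smallest p is 0.125. miR-34a*, from the p53-induced miR-34a hairpin, had 9, 2, 25 and 6 reads and 15, 4, 51 and 7 reads, against 1095 to 6696 reads of miR-34a, and its change was -1.68 ± 1.66 (SD, n = 4 pairs). For let-7i* the change was -0.14 ± 0.84 and for miR-378* -0.14 ± 0.87 (SD, n = 4 pairs each), both within their spread.

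**Figure D5:**
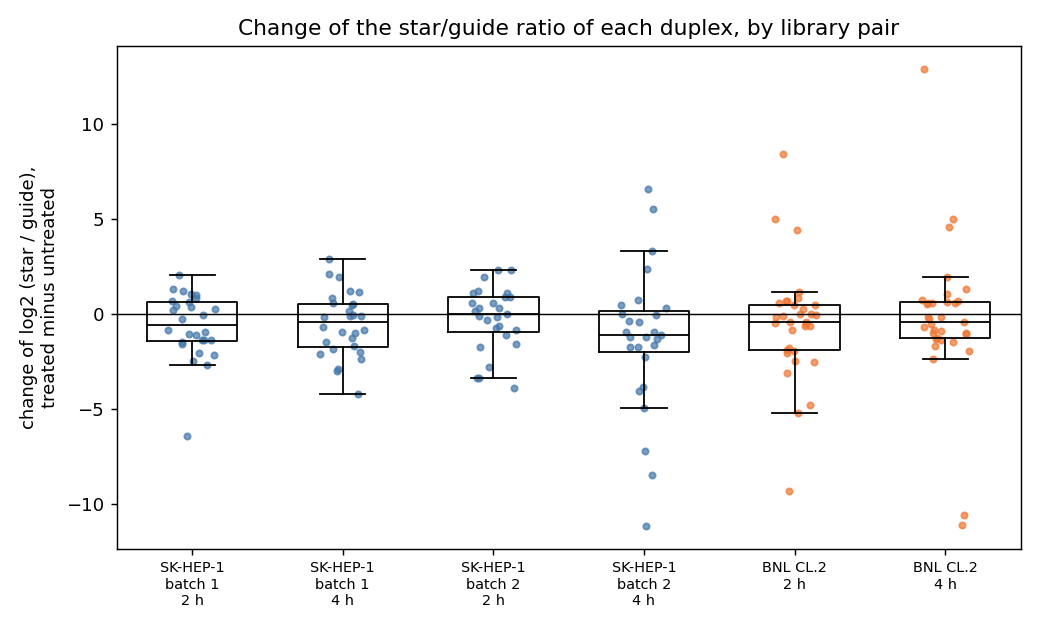
Change of log2 star/guide (treated minus untreated) for each duplex with a mean of at least 10 star reads, 1 point per duplex and 1 box per library pair (box: quartiles, line: median, whiskers: farthest points within 1.5 box lengths). The medians run from -1.10 to -0.01 in the 4 SK-HEP-1 pairs (blue) and are -0.43 and -0.44 in BNL CL.2 (orange), and single duplexes lie far on both sides of 0.

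Batches differed more than treatment in these ratios. The median absolute difference of the mean log2 star/guide between the batches was 1.83 over the 32 duplexes, against a median absolute change with treatment of 0.72, and 25 of 32 lay on the same side of 0 in both batches. For 5 duplexes the batches differed by more than 4 on the log2 scale. miR-744* was at -5.11 in batch 1, where miR-744 had 285 to 1784 reads. Its value of 4.62 in batch 2 came from a guide row that was not listed there and was set to 0. miR-744* itself had 4 to 50 reads throughout. miR-99b* went the other way, with 4.55 and -3.26, as the reads of miR-99b went from 0 to 2 in batch 1 to 72 to 108 in batch 2. let-7e* (-0.04 and -5.71), miR-181a* (-7.37 and -1.503) and miR-550a* (8.41 and 3.60) were the others. Which strand was read more often therefore depended on the batch for miR-99b. The same held for miR-500a*, above its guide in all batch 1 libraries (log2 star/guide 0.16 to 1.52). In batch 2 it was below its guide in all libraries (-5.04 to -1.69), with 5, 0, 8 and 0 star reads. Batch means of miR-26b*, miR-22*, miR-15a* and miR-18a* also lay on different sides of 0. For miR-744 and miR-550a the strands could be compared in 1 batch only, as the guide row was not listed in the other.

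The share of all miRNA reads that mapped to star rows lay between 0.974% and 1.44% in every library. In SK-HEP-1 it was 1.18%, 1.06%, 1.44% and 1.03% in batch 1 and 0.989%, 1.06%, 1.17% and 0.974% in batch 2. In BNL CL.2 it was 1.44% (Wilson 95% interval 1.41% to 1.47%), 1.004% (0.985% to 1.02%), 0.983% (0.963% to 1.004%) and 1.08% (1.06% to 1.102%). These intervals cover read counting within a library only, not the spread between libraries. The log2 ratio of the treated to the untreated share was -0.20 ± 0.24 (SD, n = 4 pairs) in SK-HEP-1, below 0 in 3 of 4 pairs, and -0.52 and 0.13 at 2 and 4 h in BNL CL.2. The summed RPM of star rows changed by -1.69 ± 0.47 on the log2 scale and that of the other rows by -1.49 ± 0.42 (SD, n = 4 pairs), so that the star strands were lower together with the other miRNAs. Star rows above 0 numbered 62, 43, 70 and 45 in batch 1, 62, 52, 55 and 51 in batch 2 and 80, 76, 80 and 68 in BNL CL.2, fewer in each treated library than in its untreated partner. The treated SK-HEP-1 libraries also held fewer miRNA reads, and the part of depth in these numbers was not tested.

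Genes that make and load the duplex were looked up in the SK-HEP-1 mRNA table, with 1 library per condition and therefore no test. At 2 h, 1 of 11 list genes with a value of at least 1 FPKM in either library was past 2-fold higher and 2 were past 2-fold lower, beside 23.5% and 19.9% of 5475 genes. At 4 h these numbers were 3 and 3 of 10, beside 16.6% and 28.2% of 5971 genes. Among the processing factors, DGCR8, the partner of Drosha, was at 1.65, 1.07, 7.24 and 1.34 FPKM, and DROSHA at 1.17, 1.21, 0.819 and 0.816 FPKM. XPO5, which exports the hairpin, was at 7.75, 2.62, 4.39 and 2.41 FPKM. TARBP2, a partner of Dicer, was at 14.1, 22.6, 34.7 and 6.44 FPKM, while DICER1 was listed at 0 in all 4 libraries, as were TSNAX and EIF2C4, and a listed 0 can be a failed estimate. EIF2C2 (Argonaute 2), which cleaves passenger strands, was at 2.18, 1.05, 1.59 and 0.637 FPKM, below the untreated value at both times. The chaperones that open Argonaute for loading had higher values at 4 h, with HSPA8 at 416, 1850, 855 and 2148 FPKM, HSP90AA1 at 109, 141, 36.0 and 111 FPKM and HSP90AB1 at 958, 610, 305 and 632 FPKM. TSN, part of the C3PO nuclease that removes cleaved passenger strands, was at 3.23, 4.62, 2.46 and 4.75 FPKM, and XRN2, an exonuclease, at 6.01, 6.94, 3.39 and 6.08 FPKM.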

How the data were processed

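The authors aligned SOLiD small RNA reads with Bowtie 0.12.7 after cutadapt trimming and deposited raw read counts per named miRNA, with no normalization, in 3 tables, and mRNA values as FPKM from TopHat and Cufflinks (hg19/GRCh37, per the labels). Quality reads, used for RPM and as library sizes, came from the study's library statistics, and a miRNA not listed in 1 SK-HEP-1 table was set to 0 there. Conditions came from GEO titles. The design text names SOLiD 3 for BNL CL.2, the titles 5500xl.

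Tests used edgeR 4.0.16 in R 4.3.3 (quasi-likelihood, normalization factor 1, batch and time as terms, rows of at least 1 RPM, Benjamini-Hochberg over all tested rows), with limma 3.58.1 and DESeq2 1.42.0 as alternatives. Python 3.11.15 with pandas 2.3.3, numpy 2.4.6 and scipy 1.17.1 gave the ratios. In simulated counts for treated against untreated SK-HEP-1 (199 miRNAs), 0 were called without a change, and 29 of 40 miRNAs lowered 8-fold and 38 of 40 lowered 16-fold were found. Both simulated falls were larger than the median log2 fold change of the star rows (-1.72). Recovery of falls of that size was not simulated. The common biological coefficient of variation was 0.678. Batch was kept as a block because libraries of 1 batch deviate together (correlation 0.46 to 0.73 over 6 pairs of conditions); p-values measure the spread between batches and times only. Floors cover counting error only.

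Named rows were the 10 highest star rows of each line, every duplex with star above guide, the 5 lowest and the 5 highest log2 fold changes among tested star rows, and star rows of 2 clusters; miR-193*, miR-744*, miR-99b*, let-7e*, miR-181a*, miR-34a*, let-7a-1* and let-7c-2* were named after their values were seen. Members and lists were chosen with earlier results of these data known. The arm of each human star strand was assigned from later 5p/3p names, and names without a RefSeq entry have no sequence here. 1 further star row is not reported here.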

Additional observations from a re-analysis of the deposited data

How the results depend on the processing

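Counts of star rows past an adjusted p of 0.05 in SK-HEP-1 (0 with edgeR over both times) depended on the setting: 24 of 42 with scaling by reads left after the tRNA filter (50.3% of all tested rows), 4 of 17 with a minimum of 5 RPM (17.1%), 24 with DESeq2 (47.2%), 12 with limma (21.1%) and 17 with a replicate block of each treated and untreated pair (30.2%). It stayed at 0 with no replicate block, under the other scalings and filter and without any 1 library, as at 2 h, at 4 h and for their difference in every setting run, DESeq2 included. With DESeq2 size factors, scaling by the total of the miRNA counts and TMM, the median log2 fold change of star rows was -0.32, -0.24 and -0.43, with tRNA-filtered reads -2.05, with limma -1.09, and without 1 library -1.86 to -1.51.

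Relative to the miRNA total, 12 named rows turned above 0: miR-126* (0.25), miR-378* (0.064), miR-550a* (0.026), miR-27a* (0.32), miR-454* (0.63), miR-30a* (0.65), let-7d* (1.24), miR-15a* (0.24), miR-18a* (0.068), miR-15b* (0.63), miR-589* (0.90) and miR-545* (0.26). With TMM 9 did: miR-126* (0.025), miR-27a* (0.13), miR-454* (0.43), miR-30a* (0.45), let-7d* (1.06), miR-15a* (0.053), miR-15b* (0.32), miR-589* (0.69) and miR-545* (0.037). With DESeq2 size factors the values were 0.16, 0.23, 0.55, 0.57, 1.16, 0.13, 0.48, 0.82 and 0.17 for miR-126*, miR-27a*, miR-454*, miR-30a*, let-7d*, miR-15a*, miR-15b*, miR-589* and miR-545*. miR-17* turned to -0.33 with limma and to -1.60 with no replicate block, where miR-15b* was at 0.079. Without 1 library, miR-17* ranged from -0.60 to 2.91, miR-15b* from -2.14 to 0.51, let-7d* from -0.48 to 0.28 and miR-15a* from -1.84 to 0.27. These shifts follow from the scale for the first 3 settings, and for the rest the cause was not tested.

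The change of the log2 star/guide ratio in SK-HEP-1 (-0.53) was -0.22 with at least 20 star reads, -0.36 with at least 5, -0.80 with guides matched without the locus number, -0.48 with 1 read added to each count and -0.71 to -0.34 without 1 library. The change of the star share was -0.30 to -0.10 without 1 library. In BNL CL.2 the ratio changed by -0.52 with at least 5 star reads and -0.41 with guides matched without the locus number. The star row was above the guide row in 5 SK-HEP-1 duplexes over treated libraries and in 12 BNL CL.2 duplexes over untreated ones, and the cause was not tested.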
